A study of Mus musculus with 42 samples.

Results

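Olfr1160 is 1 of 1088 intact odorant receptor (OR) genes listed in the pS6-IP-Seq tables, and it was selected on its values under the odorant trimethylthiazoline (TMT), so those values are given as a description with no test. Its values under acetophenone (ACT) and in dorsal and ventral tissue did not choose it and were tested. The mice were C57BL/6 at postnatal day 20 to 22. For pS6-IP-Seq they spent 1 h with TMT or ACT at a concentration (v/v) of 0.01%, 0.1%, 1% or 100%, or with no odor, and each group had 3 mice. Each odorant had 2 sets of 3 no odor mice, 1 for 0.01% and 0.1% and 1 for 1% and 100%, and a litter number stands for littermates of the same sex within 1 such set, so that litter 1 of one set is not litter 1 of another. Total RNA was sequenced from 3 dorsal and 3 ventral libraries of olfactory mucosa of mice given no odor, and the table for those lists 1087 ORs.

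A mature olfactory sensory neuron expresses 1 OR gene, a G protein-coupled receptor that sits in its cilia and sets which odorants the neuron responds to. When such a neuron is active its ribosomal protein S6 becomes phosphorylated (pS6), and RNA precipitated with an antibody to pS6 is richer in the transcripts of active neurons. The level of an OR in that RNA therefore follows both the activity of its neurons and their number. TMT is a component of fox odor that evokes fear behavior in rodents, and ACT is an aromatic ketone that is widely used as a test odorant. ORs lie in clusters on many chromosomes, and neurons that express a given OR are confined to a zone of the epithelium between its dorsal and ventral ends.

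Olfr1160 (ENSMUSG00000075141.5) lies on the minus strand of chromosome 2 at chr2:88000927-88008268 in GRCm38, by the GENCODE M21 annotation. Its longer transcript of 6042 bases has 2 exons. The first, of 198 bases, is untranslated, and the second, of 5844 bases, holds the whole coding region of 310 codons and a long 3′ UTR. A second, shorter model of 960 bases is a coding region alone, of 957 bases without the stop codon, against 930 in the longer transcript. No other annotated gene overlaps Olfr1160. Coding bases make up 15.4% of the longer transcript, so most of its length is UTR.

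Olfr1160 has a pair of near copies on the same chromosome, Olfr1154 and Olfr1158, which were singled out after the values were seen. The protein of Olfr1154 matched that of Olfr1160 at 95.2% of 310 aligned residues and that of Olfr1158 at 93.2%, while the closest relative after them, Olfr1133, matched at 57.7%. The median over the 1075 ORs with an aligned coding region was 42.9%. Olfr1154 starts 99.7 kb from Olfr1160 at chr2:87901256-87905166 on the minus strand, and Olfr1158 starts 10.8 kb away at chr2:87990113-87991054 on the plus strand. Over the 930 coding bases, each of them differed from Olfr1160 at 52 bases. Of the 881 stretches of 50 bases in the coding region, the length of a read, 182 (20.7%) also occurred in Olfr1154 and 14 (1.59%) in Olfr1158. Over the whole 6042-base transcript 4.22% of stretches occurred in Olfr1154 and 6.11% in a transcript of any other gene. Counts of these ORs are estimates to that extent, because RSEM divides reads that fit several genes.

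The stretch below codes for the motif at the inner end of the third transmembrane segment, by which ORs are recognised, and is shown because the near copies are almost the same there. Capitals mark bases that differ from Olfr1160. In GRCm38 the Olfr1160 bases lie at chr2:88006369-88006398 on the minus strand, and the codons are the 10 that start at codon 118. Those of Olfr1154 lie at chr2:87903294-87903323 (minus) and of Olfr1158 at chr2:87990464-87990493 (plus).
Olfr1160: atggcttatgacaggtacattgcaatctgt
Olfr1154: atggcttatgacaggtacattgcaatTtgt
Olfr1158: atggcttatgacaggtacattgcaatctgt
Here the near copies differed from Olfr1160 by 1 base and by 0 bases. The next stretches are the pair of 10-codon windows in which the near copies differed most from Olfr1160, at chr2:88006051-88006080 from codon 224 and at chr2:88005991-88006020 from codon 244. In Olfr1154 they lie at chr2:87902976-87903005 and chr2:87902916-87902945 (minus), and in Olfr1158 at chr2:87990782-87990811 and chr2:87990842-87990871 (plus).
Olfr1160: atttgtaaaataggttctgcagaaggaagg
Olfr1154: attCTtaaaaCaggttctgcagaGggaagA
Olfr1158: attCTtaaaaCaggttctgcagaGggaagA
Olfr1160: ctggccgtaatcaccatctatcatggcacc
Olfr1154: ctgAcAgtaGtTacTatTtatcatggTacT
Olfr1158: ctggcAgtaatcaccatTtatcatggcacc
In the first window both near copies carried the same 5 differences, and in the second Olfr1154 differed at 8 bases and Olfr1158 at 2.

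Counts on ORs ranged from 37012 to 128805 per pS6-IP-Seq library and from 155319 to 242123 in total RNA. Levels are given as normalized counts, per 100000 OR counts after TMM scaling over the 36 pS6-IP-Seq libraries, or over the 6 total RNA libraries. The tables list ORs only, so markers of neurons and of other cell types were not analysed here. At 0.01%, 1% and 100% ACT, but not at 0.1%, the library numbered litter 1 stood apart. Over the other 50 ORs called higher by 1% TMT, the median log2 change from the no odor littermate was 1.81 at 0.01%, 2.01 at 1% and 1.04 at 100% ACT in litter 1, and at most 0.42 in the other ACT libraries, the 0.1% ACT library of litter 1 among them at 0.13. Over the 7 ORs that the study names for TMT the medians were 1.83, 2.65 and 1.90 in those 3 libraries, and the 100% ACT library of litter 3 also had 1.16. In the 1% TMT libraries the median over the 50 ORs was 1.87 to 1.92. For the 0.1% TMT library of litter 1, a file name in its label gives 1% TMT, while its odor label and the study's code give 0.1%, the group used here.

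Olfr1160 was high after 1% and 100% TMT and low after 0.01% and 0.1% TMT. After 1% TMT its level was 185, 164 and 188 normalized counts in litters 1 to 3, against 15.2, 10.8 and 17.0 in their no odor littermates. The lowest of the 1% TMT libraries was above the highest no odor library, as it was, by any margin, for 8.18% of all ORs. The counts behind these levels were 69, 142 and 94, against 10, 5 and 7. Per litter, the log2 change (with 1 added to each normalized count) was 3.52, 3.81 and 3.39, a mean of 3.57 ± 0.22 (SD, n = 3) or 11.9-fold. This was the second highest mean change of the 1088 ORs, at a rank of 2. In the fit across all ORs, edgeR's quasi-likelihood test called 4.69% of ORs higher at 1% TMT. The data cannot show whether such a level comes from more cells with marked ribosomes or from more RNA per cell, which cannot be told apart in bulk tissue.

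After 100% TMT the level of Olfr1160 was 70.1, 147 and 153 normalized counts, against the same no odor littermates. All 3 libraries again lay above the no odor libraries, as they did for 15.7% of all ORs. The log2 change per litter was 2.14, 3.66 and 3.10, a mean of 2.96 ± 0.77 (SD, n = 3) or 7.80-fold, with a rank of 5 among the 1088 ORs. edgeR called 11.6% of ORs higher at this concentration. Within litters, the level at 100% TMT minus that at 1% TMT was -1.38, -0.16 and -0.29 on the log2 scale, a mean of -0.61 ± 0.67 (SD, n = 3), so 100% was lower in each of the 3 litters and the mean difference was smaller than its SD.

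At the lower concentrations the groups overlapped. After 0.01% TMT Olfr1160 had 27.7, 9.58 and 9.75 normalized counts, against 33.6, 26.1 and 8.36 in the no odor littermates, a mean log2 change of -0.48 ± 0.80 (SD, n = 3). After 0.1% TMT it had 16.8, 26.7 and 21.3 normalized counts, against those same littermates, a mean log2 change of 0.11 ± 1.10. Neither change was larger than its SD, and without litter 1, whose 0.1% TMT label is in doubt, the change at 0.1% TMT was 0.64. The level at 0.1% TMT minus that at 0.01% TMT was -0.68, 1.39 and 1.05 on the log2 scale, a mean of 0.59 ± 1.11. The plot of levels by concentration shows the step between 0.1% and 1% TMT, with the reservation that these concentrations had different litters.

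**Figure D1:**
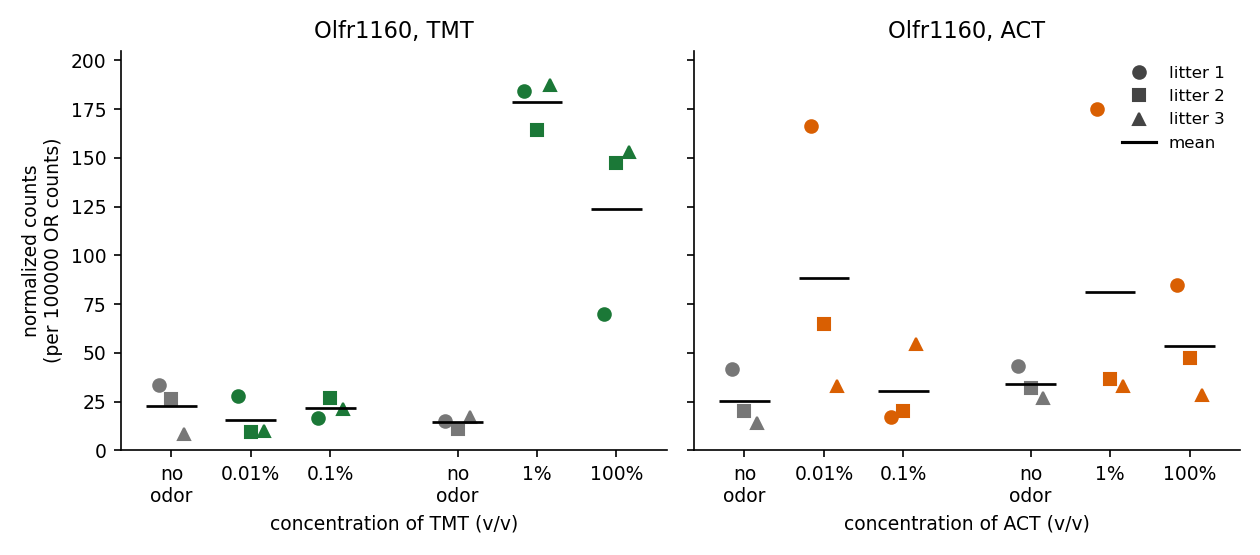
Normalized counts of Olfr1160 (per 100000 OR counts) in each pS6-IP-Seq library, TMT on the left and ACT on the right, with each set of no odor littermates at the low end of its concentrations. Symbols are litters and lines are means; the 1% TMT libraries sit between 164 and 188, and the high ACT points at 167 and 175 are each from the litter numbered 1 of its own set.

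Olfr1154 followed another course. After 1% TMT it had 48.1, 49.8 and 35.9 normalized counts, against 45.6, 58.1 and 41.3 in the no odor littermates, and the groups overlapped. Its log2 fold change was -0.16 ± 0.40 (SE, edgeR quasi-likelihood test, adjusted p = 1.0). After 100% TMT it had 99.0, 143 and 175 normalized counts, each above all 3 no odor libraries, as held for 15.7% of all ORs. It rose by 1.44 ± 0.32 on the log2 scale (edgeR quasi-likelihood test, adjusted p = 1.3e-04), a rank of 104, where 11.6% of all ORs were called higher. Leaving out a litter gave 1.19 to 1.66, with adjusted p from 9.5e-04 to 0.048. In 1 fit of the 18 TMT libraries, its response at 100% TMT exceeded that at 1% TMT by 1.65 ± 0.35 (edgeR, adjusted p = 2.9e-04) and that at 0.01% TMT by 1.96 ± 0.50 (adjusted p = 0.0057). Because Olfr1154 was singled out after the values were seen, its p-values do not allow for that choice.

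Set side by side within litters, the log2 change of Olfr1160 was higher than that of Olfr1154 by 3.69 ± 0.31 (SD, n = 3) at 1% TMT and by 1.48 ± 0.77 at 100% TMT. No test is given for these, since the value of Olfr1160 chose it. Olfr1158 was too low to follow. It had 2.32 to 13.4 normalized counts in the 1% TMT libraries and 0 to 5.47 in the 100% TMT libraries, against 4.30 to 9.72 in their no odor littermates. With the counts of the 3 genes summed, the log2 change was 1.70 ± 0.13 at 1% TMT and 1.84 ± 0.51 at 100% TMT, positive in both and smaller than for Olfr1160 alone.

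**Figure D2:**
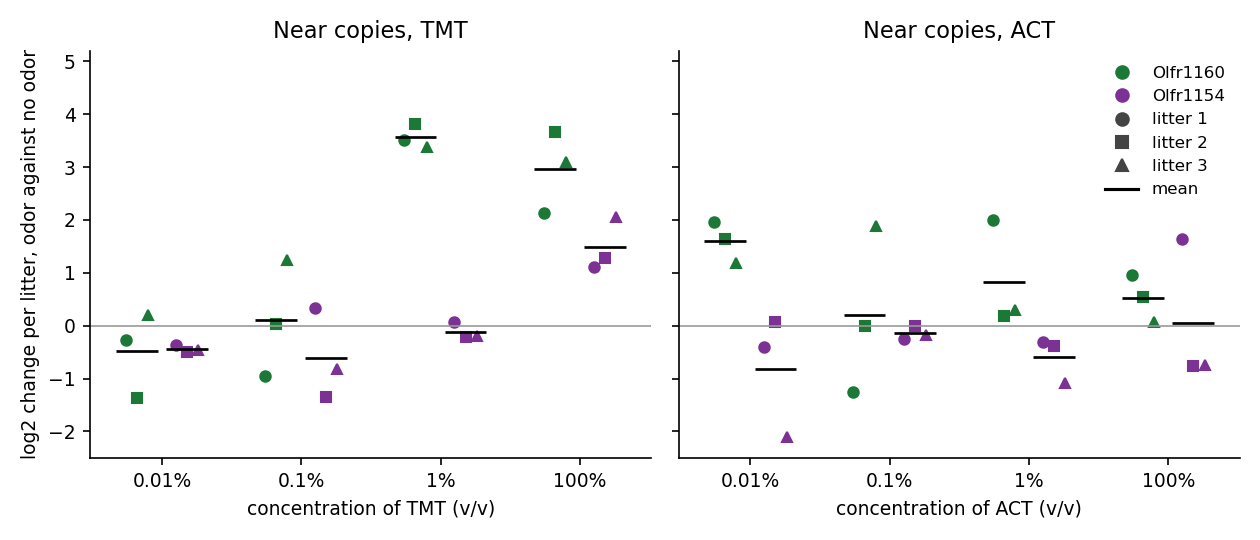
Log2 change of normalized counts from the no odor littermate for Olfr1160 (green) and Olfr1154 (purple) at each concentration of TMT (left) and ACT (right). Symbols are litters and lines are means; at 1% TMT Olfr1160 lies between 3.39 and 3.81 and Olfr1154 between -0.22 and 0.08.

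Under ACT no comparison of Olfr1160 passed the test. After 0.01% ACT it had 167, 65.1 and 33.2 normalized counts, against 42.0, 20.2 and 14.1 in the no odor littermates. Each library was above its own littermate, by 1.96, 1.64 and 1.18 on the log2 scale, although the groups overlapped. The log2 fold change was 1.66 ± 0.35 (SE) (edgeR quasi-likelihood test, unadjusted p = 0.0024, adjusted p = 0.87). That test called 0% of ORs higher here, with 18 higher and 10 lower at an unadjusted p under 0.05. The likelihood ratio test called 3 ORs, Olfr1160 among them (adjusted p = 0.046), and DESeq2 called 2. Without litter 1, whose library stood apart, the value was 1.48 (adjusted p = 0.41). With the counts of Olfr1154 and Olfr1158 added it was 0.40 (adjusted p = 1.0), and Olfr1154 alone was lower in 2 of the 3 litters.

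After 1% ACT Olfr1160 had 175, 36.4 and 32.9 normalized counts, against 43.3, 32.1 and 26.6 in the no odor littermates. Only the library of litter 1 was above all no odor libraries. The log2 fold change was 0.89 ± 0.37 (SE, edgeR quasi-likelihood test, adjusted p = 0.38), and without litter 1 it was 0.23 (adjusted p = 0.98). edgeR called 1.38% of ORs higher at this concentration. In the 1% ACT library of litter 1 the median log2 change of the other ORs called higher by 1% TMT was 2.01. Any link between this and the level of Olfr1160 was not tested.

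After 0.1% ACT Olfr1160 had 17.0, 20.2 and 54.7 normalized counts, against 42.0, 20.2 and 14.1 in the no odor littermates. Litter 1 was lower, litter 2 was level and litter 3 was higher. The log2 fold change was 0.23 ± 0.53 (SE, edgeR quasi-likelihood test, adjusted p = 1.0), and without litter 3 it was -0.66. edgeR called 0.643% of ORs higher. After 100% ACT the levels were 85.1, 47.3 and 28.1 normalized counts, against 43.3, 32.1 and 26.6, with a log2 fold change of 0.54 ± 0.44 (adjusted p = 0.67). The quasi-likelihood test called 0% of ORs higher at 100% ACT, with 114 higher and 41 lower at an unadjusted p under 0.05, while the likelihood ratio test called 37 higher and DESeq2 called 23 higher.

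Directly compared, Olfr1160 differed by -0.37 ± 0.58 (SE) between 100% and 1% ACT and by -1.26 ± 0.60 between 0.1% and 0.01% ACT on the log2 scale (edgeR quasi-likelihood test on the 18 ACT libraries, adjusted p = 0.84 and 0.79). Without litter 1, the first contrast was 0.10 (adjusted p = 0.98), the opposite direction. edgeR's quasi-likelihood test called 0 ORs in either contrast. At an unadjusted p under 0.05, 90 ORs were higher and 48 lower in the first, and 30 higher and 36 lower in the second. The likelihood ratio test called 7 and 0 ORs, and DESeq2 called 18 and 3. The landmark ACT ORs Olfr923 and Olfr983 rose by 3.75 ± 0.42 and 2.42 ± 0.32 at 0.1% ACT (adjusted p = 3.5e-04 for each). The same test called neither of them at 0.01% ACT (3.10 and 2.02, adjusted p = 0.65 and 0.58), 1% ACT (2.83 and 0.70, adjusted p = 0.66 and 0.26) or 100% ACT (2.0 and -0.27, adjusted p = 0.051 and 0.82). The study, with its own test, reports both as enriched at 0.01% ACT, and Olfr923 at the higher concentrations too. It also reports higher pS6 staining in neurons of both at 0.01% ACT. A missing call of Olfr1160 under ACT therefore does not show that a response is absent.

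In the order of mean levels over the 12 sets of pS6-IP-Seq libraries, 1% TMT was first at 179 ± 12.6 normalized counts (SD, n = 3). It did not overlap with the next, 100% TMT at 124 ± 46.4. Its lowest library, at 164, was below the highest library of 0.01% ACT (167) and of 1% ACT (175), so 1% TMT overlapped with those sets. From 100% TMT down, every set overlapped with the next in order. They ran through 0.01% ACT (88.3 ± 69.6), 1% ACT (81.4 ± 81.1) and 100% ACT (53.5 ± 29.0) to the no odor mice of the higher TMT concentrations, the lowest at 14.3 ± 3.22. Over all 12 no odor libraries the level ran from 8.36 to 43.3, with a median of 23.2 and counts of 5 to 33.

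In total RNA, Olfr1160 was higher in dorsal than in ventral mucosa. The dorsal libraries had 247, 165 and 301 normalized counts, against 44.7, 47.3 and 55.9 in the ventral libraries. Every dorsal library was above every ventral one, which held for 39.4% of ORs. The log2 fold change was 2.23 ± 0.57 (SE, edgeR quasi-likelihood test, adjusted p = 0.0033). edgeR called 37.4% of ORs higher and 37.2% lower in dorsal mucosa, so a call by itself is common here. Without replicate 1 or replicate 3 the value was 2.12 or 2.13 and the call was lost (adjusted p = 0.064 and 0.11).

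The near copies had the same direction. Olfr1154 had 376, 241 and 513 normalized counts in dorsal libraries, against 27.2, 33.1 and 37.8 in ventral libraries, and was higher by 3.47 ± 0.59 on the log2 scale (edgeR, adjusted p = 2.2e-04). Olfr1158 had 13.1 to 30.5 normalized counts in dorsal libraries, against 1.46 to 4.73 in ventral libraries, and was higher by 2.90 ± 0.70 (adjusted p = 0.0024). With the counts of all 3 summed, the difference was 2.87 ± 0.54 (adjusted p = 3.8e-04).

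**Figure D3:**
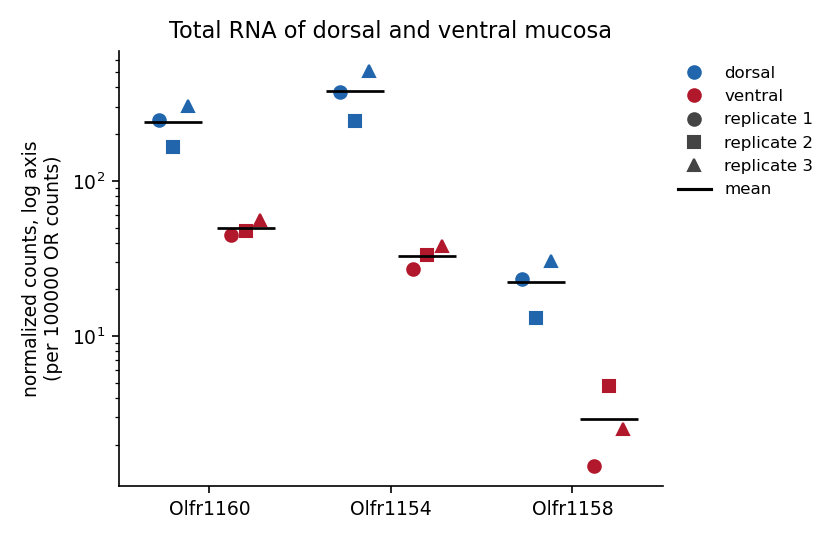
Normalized counts (log axis, per 100000 OR counts) of Olfr1160, Olfr1154 and Olfr1158 in total RNA of dorsal (blue) and ventral (red) mucosa. Symbols are replicates and lines are means; for Olfr1160 the dorsal libraries lie between 165 and 301 and the ventral libraries between 44.7 and 55.9.

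The ORs that surround Olfr1160 were then described. Of the 10 nearest listed ORs, 5 on each side, 0 were called in either direction at any concentration of TMT or ACT by edgeR's quasi-likelihood test or by DESeq2. At an unadjusted p under 0.05 there was 1, Olfr1157 at 100% ACT (log2 fold change 1.41 ± 0.42, adjusted p = 0.15), and the likelihood ratio test called 1 at that concentration. Of all 1088 ORs, edgeR's quasi-likelihood test called 4.69% higher at 1% TMT and 11.6% higher at 100% TMT, where it called 36 ORs lower. At the other concentrations it called 0% to 1.38% higher, so 0 of 10 does not set the neighbours apart. The median log2 fold change of the 10 nearest at 1% TMT was -0.19, against -0.04 over all ORs. Among them Olfr73, known as mOR-EG and as a receptor for eugenol, starts 31.4 kb away and had a log2 fold change of 0.38 ± 0.36 at 1% TMT (edgeR quasi-likelihood test, adjusted p = 0.92). Olfr1161, which starts 21.8 kb away, had 0.26 ± 1.12 and Olfr1157 had -0.13 ± 0.36. Olfr74 and Olfr1162 had -0.51 ± 1.50 and -0.25 ± 0.45 (adjusted p = 1.0 for each of these 4).

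Most neighbours had the same zonal direction as Olfr1160. Of the 10 nearest, 9 were called higher in dorsal mucosa and 1 was called lower, with a median log2 fold change of 3.33. Over all ORs 37.4% were called higher and 37.2% lower, with a median of -0.65. Among the 119 other listed ORs from Olfr1112 to Olfr1272, 21 (17.6%) were called higher in dorsal mucosa and 70 lower, with a median of -2.18. Within 400 kb of Olfr1160, a distance chosen after the values were seen, 19 of 33 were called higher and 2 lower. Farther away 2 of 86 were called higher and 68 lower. The map of fold changes by distance shows this group of dorsal ORs around Olfr1160.

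**Figure D4:**
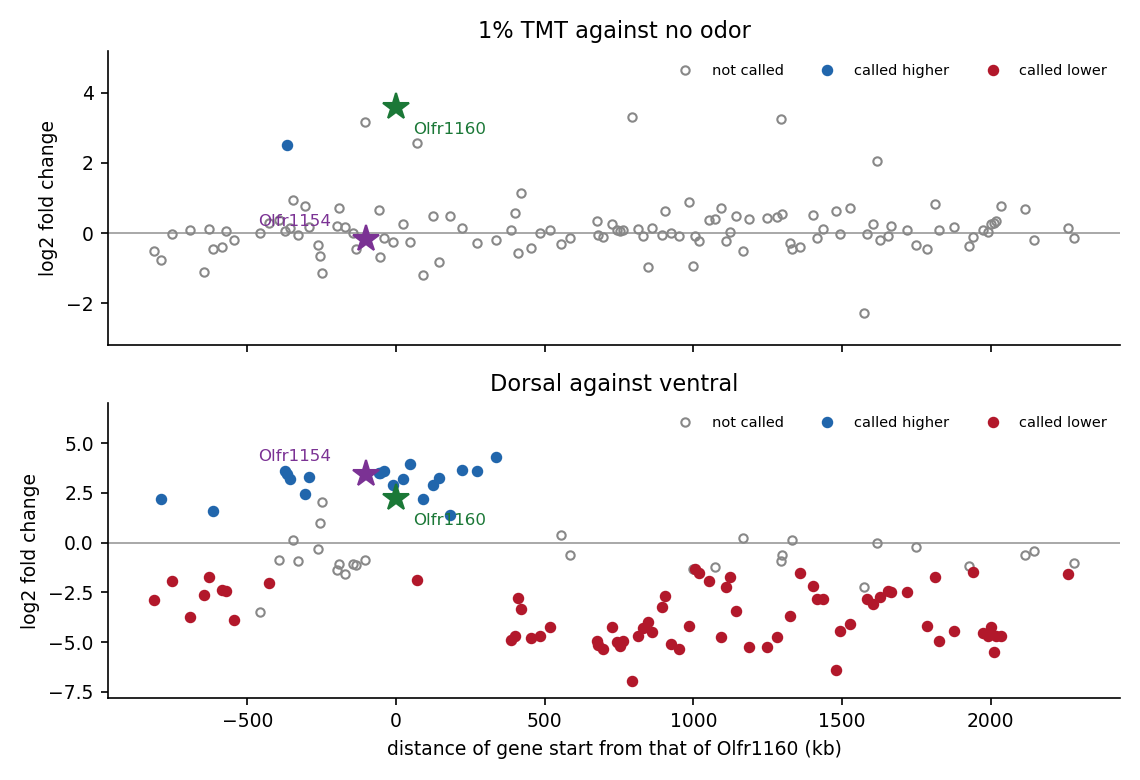
Log2 fold change of ORs from Olfr1112 to Olfr1272 against the distance of their start from that of Olfr1160, at 1% TMT (top) and between dorsal and ventral mucosa (bottom). Filled points passed edgeR's quasi-likelihood test (blue higher, red lower). In dorsal mucosa 19 of the 33 other ORs within 400 kb were called higher, against 2 of 86 farther away and 37.4% of all ORs.

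On the same stretch of chromosome 2, 1 of the 119 ORs (0.84%), Olfr1132, was called higher at 1% TMT, against 4.69% of all ORs, and 6 were higher at an unadjusted p under 0.05. At 100% TMT 11 (9.24%) were called higher, against 11.6% of all ORs, and 2 lower, against 36 of all 1088 ORs. At 0.01% and 0.1% TMT 0 of them were called higher and, at 0.1% TMT, 1 was called lower. Of all 1088 ORs, edgeR called 0.368% and 1.38% higher at these concentrations, and 1 and 7 ORs lower. At an unadjusted p under 0.05, by the likelihood ratio test and by DESeq2, 0 of the 119 were likewise higher. At an unadjusted p under 0.05, 4 and 7 of the 119 were lower, against 38 and 38 of all ORs. Of the 10 ORs closest to Olfr1160 in protein sequence, 0 were called at 1% TMT (1 at an unadjusted p under 0.05, 0 by the likelihood ratio test or DESeq2) and 3 were called higher at 100% TMT, namely Olfr1154, Olfr1133 and Olfr1134, where edgeR called 4.69% and 11.6% of all ORs higher. Olfr1133 rose by 2.61 on the log2 scale at 100% TMT (adjusted p = 4.3e-10) and had 0.16 at 1% TMT (adjusted p = 1.0). Olfr1134 rose by 1.53 at 100% TMT (adjusted p = 0.0014) and had 0.94 at 1% TMT (adjusted p = 0.28). The median log2 fold change of these 10 was 0.10 at 1% TMT and 0.63 at 100% TMT, against -0.04 and -0.08 over all ORs.

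For scale, the 7 ORs that the study names for TMT can be set beside Olfr1160. They were chosen on these samples and are not independent evidence of a direction. At 0.01% TMT 3 of the 7 were called higher, at 0.1% TMT 5, at 1% TMT 6 and at 100% TMT 7, with median log2 fold changes of 0.31, 1.20, 2.65 and 2.65. Of all ORs, 0.368%, 1.38%, 4.69% and 11.6% were called higher at these concentrations. Olfr1297, Olfr1395 and Olfr165 rose at 0.01% TMT, by 2.19, 1.93 and 2.19 (edgeR quasi-likelihood test, adjusted p from 3.1e-11 to 1.1e-07), the concentration at which Olfr1160 had a mean change of -0.48. Olfr531 and Olfr376 rose at 0.1% TMT, by 1.20 and 1.01 (adjusted p = 0.0017 and 0.0022). Olfr837 had 4.76 ± 1.20 at 1% TMT (adjusted p = 0.0020). Olfr506 had 0.22 at 1% TMT (adjusted p = 0.95) and rose by 3.02 at 100% TMT (adjusted p = 3.2e-20). In zone, 2 of the 7 were called higher in dorsal mucosa, Olfr376 and Olfr506, and 3 lower, against 37.4% and 37.2% of all ORs.

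The ORs with the most similar profile were found by the correlation of log2 changes over the 24 odor libraries, where each pair of concentrations shares its no odor libraries. The 728 other ORs compared had a mean of 20 counts or more. They were Olfr173 on chromosome 16 (Pearson r = 0.80), Olfr527, Olfr541 and Olfr532 on chromosome 7 (r = 0.76 for each) and Olfr1093 on chromosome 2 (r = 0.73), where the median over all compared ORs was 0.02. These 5 were chosen by their likeness to Olfr1160 in the same libraries, so their TMT values are a description with no test. The fitted log2 fold change of Olfr173 was 2.89 ± 0.33 (SE) at 1% TMT and 2.13 ± 0.39 at 100% TMT, and that of Olfr527 was 1.97 ± 0.25 and 1.57 ± 0.29. Olfr1093 and Olfr532 had 1.78 and 1.05 at 1% TMT and 2.38 and 1.82 at 100% TMT. Olfr541 had 1.10 and 1.24.

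Unlike Olfr1160, none of these 5 was called higher in dorsal mucosa. Over all ORs 37.4% were called higher and 37.2% lower, so a call in either direction is common. Olfr527, Olfr541, Olfr532 and Olfr1093 were called lower, with log2 fold changes of -2.0, -3.40, -3.13 and -3.83 (edgeR quasi-likelihood test, adjusted p = 0.015, 7.3e-04, 0.0022 and 7.5e-04), and Olfr173 had -0.90 ± 0.58 (adjusted p = 0.17). The 0.01%, 1% and 100% ACT libraries of litter 1, high in TMT ORs, enter these correlations too, and the heat map shows them beside the TMT libraries.

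**Figure D5:**
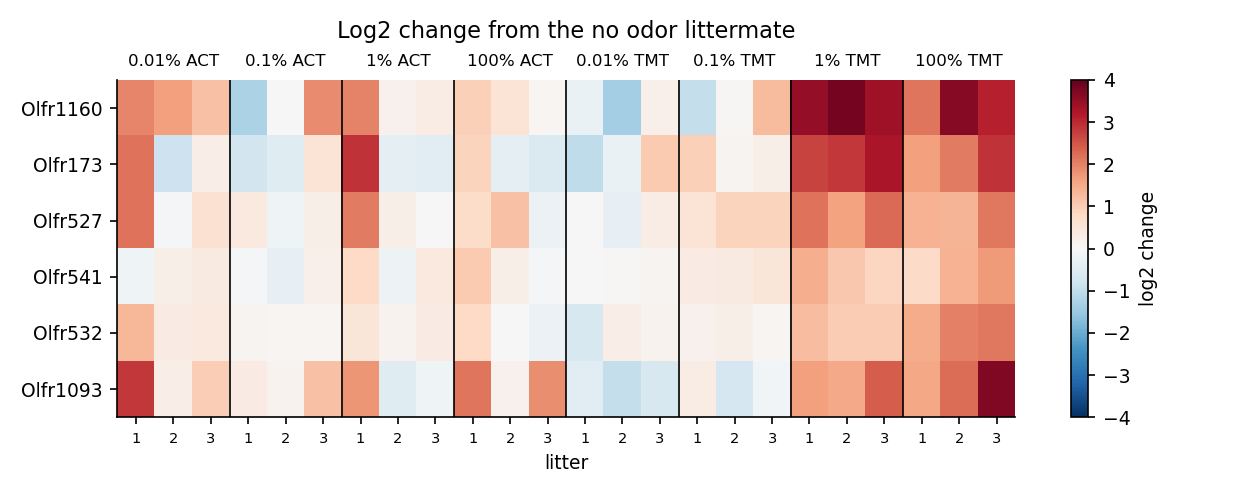
Log2 change from the no odor littermate (color scale, -4 to 4) in each of the 24 odor libraries for Olfr1160 and the 5 ORs whose changes correlated most with it. Columns are litters within each concentration; the 1% TMT changes of Olfr1160 lie between 3.39 and 3.81, and its change in the litter numbered 1 is 1.96 at 0.01% and 1.99 at 1% ACT.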

How the data were processed

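RNA bound to pS6 was sequenced from olfactory epithelium, and total RNA from dorsal and ventral mucosa. For total RNA the protocol in the labels describes the immunoprecipitation, and the study's methods are followed. The authors mapped 50-base reads with STAR to GRCm38 and estimated expected counts with RSEM on ORs annotated with UTRs; the deposited expected counts are whole numbers, and the kit gives no strand. The deposited mean signal per group is the authors' count divided by size factors and averaged. Columns of the authors' fold changes, p-values and FDR values were not used.

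Olfr1160 and the lists were chosen with earlier results of these data known. Counts were tested in R 4.3.3 with edgeR 4.0.16 (TMM over ORs, glmQLFit with robust estimation, glmQLFTest, two-sided), with the replicate number as a block, as in the study's code, no filter, and Benjamini-Hochberg adjustment over all ORs of a table at 0.05. The SE is the log2 fold change divided by the square root of F. The test was checked on counts simulated for 1% ACT, 100% ACT and the zones only, with a fixed spread and no litter effect. That spread was smaller than the one estimated from the data at every ACT concentration, at 0.01% and 100% TMT and between zones. The check therefore cannot show how the test does at the spread of these data. The study gives 3 mice for each odorant condition and 3 mice for the dorsal and ventral RNA. The p-values measure only the spread between the libraries of those mice. Libraries of 1 group differed by more than sampling noise.

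Replicate numbers are litters in pS6-IP-Seq; the deviations of same-numbered libraries from their group means correlated with a median r of 0.11 to 0.15 in the 4 sets. For dorsal and ventral libraries, paired in the study's code, the median was -0.33.

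The ORs named are Olfr1160, the 5 of highest correlation with it, the 3 nearest on each side, and landmark ORs the study names. Protein identity came from translated GENCODE M21 coding regions aligned with Biopython 1.88 (at least 250 aligned residues), in place of a protein table, so relatives were chosen after values were seen. Sequences are from GENCODE M21 transcripts, and each printed stretch was found at its place in the RefSeq GRCm38 sequence. Alternatives were other scalings, tests (DESeq2 1.42.0), a filter, no block, leaving out replicates, a pseudocount of 5 and, added after seeing the data, the summed counts of Olfr1160, Olfr1154 and Olfr1158.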

Additional observations from a re-analysis of the deposited data

Results flagged for a closer look

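The response of Olfr1154, the OR closest to Olfr1160 in protein sequence, differed between concentrations of TMT by a test of the difference itself. Olfr1154 was singled out after the values were seen, so its p-values do not allow for that choice. In 1 fit of the 18 TMT libraries, its log2 change at 100% TMT exceeded that at 1% TMT by 1.65 ± 0.35 (SE, edgeR quasi-likelihood test, adjusted p = 2.9e-04) and that at 0.01% TMT by 1.96 ± 0.50 (adjusted p = 0.0057). The share of all ORs that passed these contrasts is not given here. Olfr1154 was higher than in the no odor littermate in 3 of 3 litters at 100% TMT, where 11.6% of all ORs were called higher.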

How the results depend on the processing

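Of 137 alternative values, 125 kept their direction and side of the threshold, or moved by less than the SD. The 125 include turns of direction at 0.1% TMT, where the mean log2 change was 0.11. It was -0.07 without the replicate block, -0.46 without replicate 3 and -0.33 with the near copies summed. The likelihood ratio test called Olfr1160 at 0.01% ACT (log2 fold change 1.67). At 1% TMT the mean log2 change was 3.33 without TMM, 3.26 with a pseudocount of 5 and 1.70 with the near copies summed. Summing gave 1.84 at 100% TMT, and it turned the direction of 100% minus 1% TMT (0.15) and of 100% against 1% ACT (0.10). Ranked by Spearman correlation, 3 of the 5 most similar ORs remained. Without the replicate block the dorsal difference was 2.27 (adjusted p = 8.3e-04), and the block changed no call of Olfr1160. Leaving out 1 replicate gave 2.12 to 2.60 for dorsal against ventral, -0.66 to 0.99 at 0.1% ACT and -0.71 to 0.10 for 100% against 1% ACT. Each leaves 2 pairs. Over the alternatives other than summing, the number of ORs called ran from 0 to 4 at 0.01% ACT, 0 to 12 at 0.1%, 0 to 21 at 1%, 0 to 87 at 100% ACT and 545 to 876 between zones, and with the counts summed 20 higher and 4 lower were called at 1% ACT; for the direct ACT contrasts it ran from 0 to 18 and from 0 to 3. No odor levels of Olfr1160 rest on 5 to 33 counts. The causes of these differences were not tested.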
